A study of Mus musculus with 6 samples.

Results

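The antioxidant and pentose phosphate genes are 35 mouse genes that make, recycle or spend the reducing power with which a cell clears peroxides, superoxide and reactive lipid products, together with the pair of proteins that control many of them. They were chosen by gene symbol: every probe whose symbol in the platform's annotation is one of the 35 was taken, which gave 63 probes for 31 genes, out of 45281 probes and 19057 named genes on the array. Gsr, Prdx5, Prdx6 and G6pdx matched no probe by symbol and were not analysed here. Retinal RNA was measured on 1-colour Illumina BeadChips, 1 array per sample, in 3 samples labelled Jax WT with a wild-type genotype and 3 samples labelled Vldlr KO, from mice with the very low density lipoprotein receptor gene knocked out. Both groups carry the same background entry, JAX, which names no strain, and the labels give neither age nor sex, nor whether a sample was 1 animal or a pool. Strain and genotype therefore cannot be told apart, and the p-values reflect variation among the arrays, part of which may be technical since separate animals are not stated. Whole retina holds many cell types, so fewer cells of a type and less RNA per cell cannot be told apart either.

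The pathway runs as follows. The oxidative branch of the pentose phosphate pathway turns glucose 6-phosphate into ribulose 5-phosphate and makes NADPH. Its second branch, through ribulose-phosphate epimerase (Rpe), transketolase (Tkt) and transaldolase (Taldo1), returns the sugar carbon to glycolysis or supplies ribose. Malic enzyme 1 (Me1) makes NADPH from malate in the cytosol. NADPH recharges glutathione and thioredoxin, which glutathione peroxidases and peroxiredoxins use to reduce peroxides. NRF2 (Nfe2l2) switches on many of these genes through the antioxidant response element, and KEAP1 marks NRF2 for degradation in unstressed cells. Photoreceptors consume much oxygen and hold easily oxidised membrane lipids, so these systems are studied often in the retina.

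The upstream DNA of 6 of the genes is shown because 3 of them (Rpe, Me1 and Slc7a11) were lower in the knockout arrays. The others, Gclm, Prdx1 and Gstm5, did not pass the test although their windows hold an antioxidant response element, as that of Me1 does. Each stretch is 150 bases long and ends before the annotated start, except that of Me1. The Me1 stretch was shifted to run 10 bases past the start, so that it takes in the match there. All are RefSeq sequences of build GRCm38.p6 on the gene's own strand, and capitals mark matches on either strand to the antioxidant response element (TGACNNNGC) or to the amino acid response element (TGATGNAA), a motif of genes induced by amino acid shortage.
Rpe, chr1:66700681-66700830, plus strand: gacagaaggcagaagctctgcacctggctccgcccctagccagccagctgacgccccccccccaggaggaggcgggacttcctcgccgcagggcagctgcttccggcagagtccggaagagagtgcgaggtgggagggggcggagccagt
Me1, chr9:86695905-86696054, minus strand: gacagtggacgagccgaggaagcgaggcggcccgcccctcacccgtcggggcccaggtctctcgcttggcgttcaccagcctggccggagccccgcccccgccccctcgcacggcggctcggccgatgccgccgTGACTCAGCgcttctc
Slc7a11, chr3:50443614-50443763, minus strand: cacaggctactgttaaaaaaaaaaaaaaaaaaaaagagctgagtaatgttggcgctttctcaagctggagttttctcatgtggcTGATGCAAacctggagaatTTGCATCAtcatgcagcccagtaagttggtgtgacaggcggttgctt
Prdx1, chr4:116685449-116685598, plus strand: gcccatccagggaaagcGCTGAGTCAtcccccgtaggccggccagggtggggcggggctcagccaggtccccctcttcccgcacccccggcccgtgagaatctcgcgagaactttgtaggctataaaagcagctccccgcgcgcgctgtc
Gclm, chr3:122245407-122245556, plus strand: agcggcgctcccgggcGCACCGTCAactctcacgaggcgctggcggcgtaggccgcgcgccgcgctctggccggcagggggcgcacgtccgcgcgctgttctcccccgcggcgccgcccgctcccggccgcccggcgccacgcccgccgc
Gstm5, chr3:107895704-107895853, plus strand: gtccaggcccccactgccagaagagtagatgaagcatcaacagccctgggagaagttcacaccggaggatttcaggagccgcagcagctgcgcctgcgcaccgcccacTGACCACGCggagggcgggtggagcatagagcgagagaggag

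A window of 250 bases before to 50 after the annotated start was at hand for 29 of the 35 genes, some with several starts. The antioxidant response element was found in at least 1 window of 10 of these 29 genes (10 of 37 windows), and in 12.4% of the 32851 mouse windows of that length. The 10 genes are Nfe2l2, Srxn1, Gstm5, Gclm, Prdx1, Pgd, Me1, Txnrd1, Sod1 and G6pdx. Me1 holds TGACTCAGC from position -6 across its start, and Prdx1 holds the same letters on the opposite strand (GCTGAGTCA, from -133). This form also contains the AP-1 motif TGANTCA, which 7.81% of all windows and 4 of the 29 genes hold. Slc7a11 holds TGATGCAA from -66 and its reverse complement TTGCATCA from -47. It is the only gene of the 29 with the amino acid response element, which is in 3.97% of all windows. These matches describe letters in the windows and were not related to the signals by any test.

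Of the 63 probes, 43 were detected on at least 3 of the 6 arrays (detection p under 0.05) and were tested, and these cover 27 genes. The other 20 probes lay at background, with log2 signals from 4.18 to 5.44: 13 were detected on 0 arrays, 6 on 1 and 1 on 2. For Hmox1, which breaks down heme, Gclc, the catalytic subunit of the enzyme that starts glutathione synthesis, Txnrd1, which recharges cytosolic thioredoxin, and Pgd, the second NADPH-making enzyme of the pentose phosphate pathway, the only probe was among these 20. The Hmox1 and Gclc probes were each detected on 1 knockout array and the Txnrd1 and Pgd probes on 0 arrays, so none of the 4 genes was tested. Vldlr itself, on its brightest probe, was at 11.30, 11.33 and 11.67 in wild-type and at 10.16, 10.21 and 10.40 in knockout arrays (log2 signal). The knockout arrays kept 44.3% of the wild-type signal (log2 difference -1.18, limma adjusted p = 0.00932), a call kept in 13 of 18 alternative analyses. Probes ILMN_1218264 and ILMN_2515601 were at -1.26 and -1.23 (limma adjusted p = 0.0260 and 0.0329), calls kept in 9 and 7 of 17 alternatives. Every such count, here and below, includes 1 alternative that only loosened the threshold to 0.10 and so could not lose a call. The dim probes ILMN_1230923 and ILMN_2458671 were at 0.23 and 0.02 and were not called. Where the deleted part lies relative to the probes was not looked up, so the remaining signal checks the labels only by the direction of the called probes.

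Over all tested probes, 437 of 19921 (2.19%) passed an adjusted p of 0.05 by limma, 0.653% higher and 1.54% lower in the knockout arrays. Of the 43 probes described here 3 passed, all lower, and of the 27 genes, each counted by its brightest tested probe, 3 fell. Among all features counted in this way 2.3% passed, 0.679% higher and 1.62% lower. The 3 genes were the pentose phosphate enzyme Rpe, the NADPH-making malic enzyme Me1 and Slc7a11, the cystine carrier that imports the building block of glutathione. Me1 passed the detection filter through the wild-type arrays alone, so only a decrease could be called for it. The remaining 24 genes did not pass. The median log2 difference over the 27 genes was 0.05 and the median of its size was 0.17, beside 0.01 and 0.19 over all features. Knockout replicate 1 stood apart in lens transcripts, and wild-type replicate 3 had the lowest median correlation with its own group (0.961). Without both, Rpe was called when the probe filter was redone on the 4 arrays left, and Rpe and Me1 when the filter of the 6 arrays was kept. Wild-type replicate 1 correlated more closely with the knockout arrays (median 0.977) than with its own group (0.971), against its label. Without it Rpe was called with the filter redone, and Rpe and Me1 with the filter kept.

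**Figure D1:**
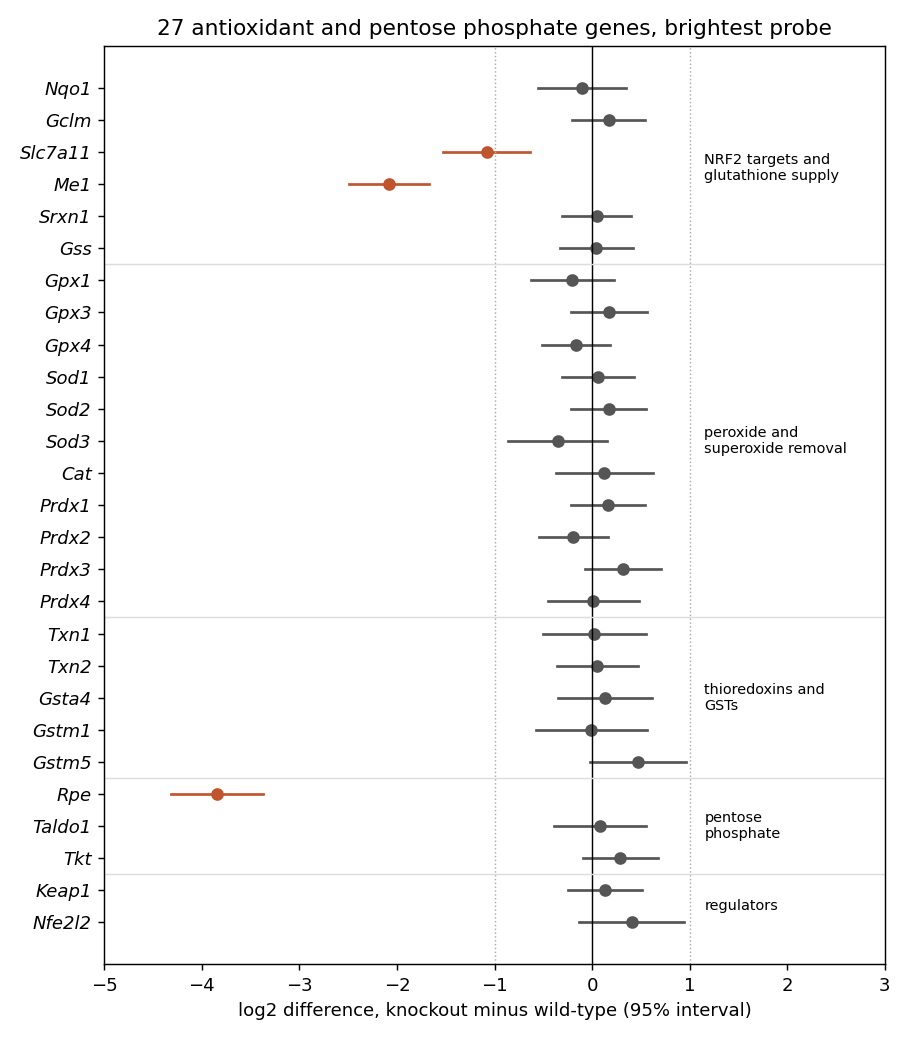
Log2 difference between knockout and wild-type arrays (points) with 95% intervals (lines) for the brightest tested probe of 27 genes, in 5 groups by role; n = 3 arrays per group, red marks an adjusted p under 0.05, and dotted lines mark a log2 difference of 1 either way. Rpe (-3.84), Me1 (-2.08) and Slc7a11 (-1.08) lie apart from the other 24 genes, whose differences run from -0.35 to 0.47.

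Rpe had the largest decrease of the 27 genes. The enzyme interconverts ribulose 5-phosphate and xylulose 5-phosphate and so links both branches of the pentose phosphate pathway. On its bright probe (ILMN_1255006) the log2 signal was 8.83, 9.03 and 8.48 in wild-type arrays and 4.86, 4.75 and 5.20 in knockout arrays. The groups were far apart, and the knockout arrays reached the level at which probes fade into background. In the deposited raw intensities the same probe read 460.3, 622.9 and 410.4 in wild-type and 70.5, 66.5 and 92.5 in knockout arrays. The log2 difference was -3.84 (SE 0.207, limma adjusted p = 2.80e-05). The knockout signal was 6.98% of that in wild-type retina, the 10th lowest difference of all 19921 tested probes. Because the probe was detected on only 2 of 3 knockout arrays, the size of this fall is limited by background. The second Rpe probe (ILMN_2633770) was detected on 0 of 6 arrays, with log2 signals of 4.28, 4.36 and 4.29 in wild-type and 4.28, 4.21 and 4.21 in knockout arrays. The fall of Rpe therefore rests on 1 probe, and the other one, being at background in both groups, cannot bear on it. The call held in all 18 alternative analyses, with log2 differences between -4.48 with the authors' table and -2.65 with quantile normalization of the raw signal.

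Transketolase, transaldolase and the isomerase Rpia, which work beside Rpe in this branch, were tested too and did not pass. Transketolase, which moves carbon units between sugar phosphates downstream of Rpe, was measured by 3 tested probes. The brightest Tkt probe was at 9.78, 9.96 and 9.93 in wild-type and 10.05, 10.13 and 10.36 in knockout arrays, so that every knockout array lay above every wild-type array. Its log2 difference of 0.29 (95% interval -0.09 to 0.67, adjusted p = 0.542) did not pass, and the other Tkt probes differed by -0.23 and 0.10. Taldo1, which works beside transketolase, was at 11.49, 11.31 and 10.82 in wild-type and 11.36, 11.30 and 11.19 in knockout arrays. Its groups overlapped and its log2 difference was 0.08 (95% interval -0.39 to 0.55, adjusted p = 0.915). Rpia, which turns ribulose 5-phosphate into ribose 5-phosphate and is named here after its values were seen, was at 7.12, 6.88 and 6.72 in wild-type and 7.26, 7.28 and 7.14 in knockout arrays. All knockout arrays were above all wild-type arrays, with a log2 difference of 0.32 (95% interval -0.08 to 0.71, adjusted p = 0.516).

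Me1 was detected only on wild-type arrays. Its single probe (ILMN_2937261) had log2 signals of 6.87, 6.49 and 6.68 in wild-type and 4.80, 4.50 and 4.49 in knockout arrays. It was detected on all 3 wild-type arrays and on 0 of 3 knockout arrays. The raw intensities were 154.4, 142.3 and 156.5 against 69.3, 59.7 and 68.7. Me1 was at least 3.74-fold lower in the knockout arrays (limma adjusted p = 0.000371, means 6.68 and 4.60). For this bound a knockout array was raised to the lowest log2 signal detected on it (4.73 to 4.82) wherever Me1 lay under that, and it holds for this normalization alone. With quantile normalization of the raw signal the fitted log2 difference was -1.14, and with an offset of 50 it was -1.23, both smaller falls than the bound. Over the 14 alternative analyses that tested Me1 the difference ran from -2.41 to -1.14, with Me1 called in each. Since the probe entered the test through the wild-type arrays alone, only a decrease could be called for it. With a wild-type array left out it no longer met the filter and was not tested. Kept in the test regardless, it was called without each of the 3 wild-type arrays, at -2.20 to -2.03 over these and the alternative without both doubtful arrays.

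Slc7a11 was lower on 1 of its 2 tested probes. This gene encodes the exchanger that takes up cystine for glutamate and is a target of both NRF2 and ATF4. The bright probe (ILMN_2948143) was at 6.22, 6.37 and 6.19 in wild-type and 5.39, 5.33 and 4.82 in knockout arrays. All 3 knockout arrays were lower than all wild-type arrays. The raw intensities were 118.1, 134.1 and 124.6 against 80.9, 81 and 79.7, detected on all 6 arrays. The log2 difference was -1.08 (SE 0.197, limma adjusted p = 0.0248), or 47.3% of the wild-type signal. The next probe (ILMN_2740738) was at 5.20, 5.09 and 5.05 in wild-type and 5.39, 5.01 and 4.83 in knockout arrays. Here the groups overlapped and the log2 difference was -0.03 (95% interval -0.47 to 0.40, adjusted p = 0.963), on a raw signal of 72.7 to 87.2 that leaves little room above background. The remaining 3 Slc7a11 probes were detected on 0 arrays. ILMN_2568074 was at 4.60, 4.56 and 4.53 in wild-type and 4.46, 4.51 and 4.49 in knockout arrays. ILMN_2574165 was at 4.38, 4.45 and 4.59 against 4.39, 4.42 and 4.35, and ILMN_2463432 at 4.25, 4.37 and 4.25 against 4.27, 4.18 and 4.24. The call on the bright probe was not stable: it was kept in 8 of 18 alternative analyses, over which the log2 difference ran from -1.57 to -0.57. Dropping wild-type replicate 1 or 2, or any of the knockout arrays, brought the adjusted p to between 0.0625 and 0.136 and the log2 difference to between -1.21 and -0.89.

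**Figure D2:**
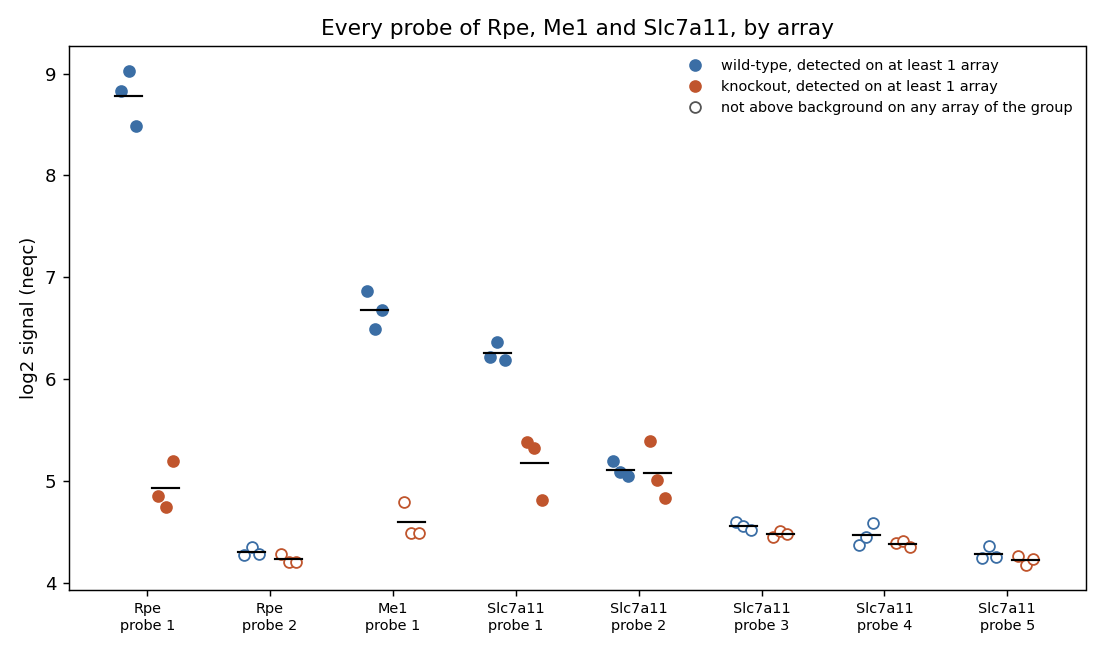
Log2 signal of all 8 probes of Rpe, Me1 and Slc7a11 on each array, wild-type in blue and knockout in red, with the mean of 3 arrays as a bar; probes are numbered from the brightest, and open circles mark a group in which the probe was above background on 0 arrays. The first probes of Rpe, Me1 and Slc7a11 part the groups, and the others lie near background in both. Among these, the third Slc7a11 probe is slightly lower on every knockout array, although it was above background on 0 arrays.

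Markers of several cell types were compared between the same arrays, and only those of microglia and macrophages and of cones included called genes. Of 10 tested microglia and macrophage markers 9 were lower in sign and 2, Fcer1g and Lyz2, were called lower. The log2 of the list's summed signal ran from 9.61 to 10.05 in wild-type and from 9.11 to 9.18 in knockout arrays. The summed erythrocyte signal ran from 13.36 to 14.66 in wild-type and from 14.20 to 15.22 in knockout arrays, with all 6 tested markers higher in sign and 0 called. Of 9 tested cone markers 3 were called, in both directions: the phosphodiesterase subunit Pde6c was at -2.38, and cone arrestin Arr3 and cone transducin Gnat2 were at 0.91 and 0.95. The summed cone signal was 14.14 to 14.19 in wild-type and 14.08 to 14.17 in knockout arrays. The median log2 level of the cone markers was 9.46 to 9.54 and 9.76 to 10.29, higher on every knockout array. In sign, 5 cone markers were higher and 4 lower. Summed pericyte signal ran from 9.41 to 9.80 in wild-type and from 9.92 to 10.54 in knockout arrays. Summed endothelial signal ran from 11.41 to 11.73 and from 11.78 to 11.82. Both sums were higher on every knockout array, with 0 of 6 and 0 of 10 markers called. Single markers went both ways: 4 pericyte markers were higher and 2 lower in sign (median difference 0.12). Of the endothelial markers 4 were higher and 6 lower (median difference -0.08). The median log2 levels of both lists overlapped between the groups. Lens markers were highest in knockout replicate 1, at 15.11 against 10.26 to 12.68 in the other arrays. Müller glia hold much of the retina's glutathione synthesis. Their summed marker signal was 14.04 to 14.32 in wild-type and 14.21 to 14.27 in knockout arrays, and 0 of 9 markers were called. The median log2 level of these markers was 10.32 to 10.38 and 9.58 to 10.22, lower on every knockout array. In sign, 5 of them were higher and 4 lower. The median log2 level of pigment epithelium markers was 6.17 to 6.47 in wild-type and 5.49 to 6.02 in knockout arrays, lower on each. Their summed signal overlapped, at 11.38 to 11.74 and 11.29 to 11.86. Of 9 tested pigment epithelium markers 6 were lower and 3 higher in sign, and 0 were called. The summed signal of rod markers, which check the retina label, was 16.17 to 16.21 in wild-type and 16.20 to 16.55 in knockout arrays. The part of these differences in the results for Rpe, Me1 and Slc7a11 was not tested.

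Of 6 tested genes among the NRF2 targets and glutathione suppliers, 2 fell, Me1 and Slc7a11, and 4 did not pass. The 8 probes of this group that were not called, Slc7a11's second one included, had differences from -0.10 to 0.30. Nqo1, a quinone reductase often used as a read-out of NRF2 activity, was at 5.71, 5.90 and 5.60 in wild-type and 5.72, 5.87 and 5.31 in knockout arrays. Its groups overlapped, with a log2 difference of -0.10 (95% interval -0.55 to 0.35, adjusted p = 0.878). Gclm, the modifier subunit of the enzyme that starts glutathione synthesis, was at 7.29, 7.49 and 7.35 against 7.47, 7.48 and 7.70. It differed by 0.17 (95% interval -0.20 to 0.55, adjusted p = 0.733). Srxn1, which repairs over-oxidised peroxiredoxins, had a bright probe at 8.93, 9.00 and 8.97 against 8.91, 9.04 and 9.08, a difference of 0.05 (95% interval -0.31 to 0.40). Its next probe was at 7.75, 7.47 and 7.53 against 7.96, 7.79 and 7.91, higher on every knockout array by 0.30 on average (adjusted p = 0.519). Gss, which completes glutathione synthesis, was tested on 3 probes with differences of 0.04, -0.10 and 0.27.

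The regulators themselves were not called. Nfe2l2, near background on its tested probe, was at 4.87, 4.81 and 4.74 in wild-type and 4.98, 4.91 and 5.74 in knockout arrays. All knockout arrays were above all wild-type arrays, but knockout replicate 3 alone was far up, and the log2 difference of 0.40 (SE 0.236, 95% interval -0.13 to 0.94) had an adjusted p of 0.545. Keap1 had 4 tested probes, and they went both ways: 0.13 on the brightest, then -0.13, 0.27 and -0.30. The brightest Keap1 probe was at 9.15, 9.13 and 8.83 against 9.17, 9.11 and 9.22, and the probe with the lowest signal of the 4 had the largest SE of all 43 probes (0.309).

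Of the enzymes that remove superoxide and peroxides, 0 were called. In this group 11 genes were tested on 17 probes, with differences from -0.35 to 0.32 and adjusted p from 0.511 up. Prdx3, the peroxiredoxin of mitochondria, was at 9.03, 8.71 and 8.99 in wild-type and 9.32, 9.13 and 9.22 in knockout arrays. Every knockout array was above every wild-type array, yet the difference of 0.32 (SE 0.171, 95% interval -0.07 to 0.70, adjusted p = 0.511) did not pass. Sod3, the secreted superoxide dismutase, was at 5.06, 4.64 and 5.34 against 4.47, 4.92 and 4.58, detected on 2 wild-type and 1 knockout arrays, with a difference of -0.35 (95% interval -0.86 to 0.15). The cytosolic and mitochondrial dismutases Sod1 and Sod2 differed by 0.06 (95% interval -0.31 to 0.43) and 0.17 (95% interval -0.22 to 0.56) on their brightest probes.

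Gpx4, which reduces lipid peroxides within membranes, and Prdx2, a cytosolic peroxiredoxin also abundant in red blood cells, shared a pattern. The bright Gpx4 probe was at 13.50, 13.57 and 13.48 in wild-type and 13.34, 13.38 and 13.33 in knockout arrays, and the bright Prdx2 probe at 13.47, 13.43 and 13.43 against 13.29, 13.33 and 13.14. On both, all knockout arrays lay below all wild-type arrays by a small step, -0.16 and -0.19 (adjusted p = 0.723 and 0.685). Such a separation downward was also seen on 8.84% of all tested probes. The dimmer probes of both genes went the other way, by 0.13 and 0.19 for Gpx4 and by 0.12 and 0.15 for Prdx2, also without passing. Gpx1, another peroxidase, was at 11.97, 12.02 and 11.97 against 12.02, 11.85 and 11.48, with the spread on the knockout side. The others of the group, Gpx3, Cat, Prdx1 and Prdx4, differed by 0.18, 0.13, 0.17 and 0.01.

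Thioredoxins and the listed glutathione S-transferases were not called on any of 6 tested probes. Gstm5, a mu-class transferase that joins glutathione to reactive compounds, came closest. It was at 9.42, 9.45 and 8.88 in wild-type and 9.54, 9.63 and 9.99 in knockout arrays, all knockout above all wild-type. The difference of 0.47 (SE 0.217, 95% interval -0.03 to 0.96, adjusted p = 0.45) was the largest rise of the 43 probes and did not pass. Gstm1 was at 6.97, 6.72 and 6.18 against 6.97, 6.53 and 6.35, with wide and overlapping groups and a difference of -0.01 (95% interval -0.58 to 0.56). Gsta4, which handles the lipid peroxidation product hydroxynonenal, differed by 0.14, the cytosolic thioredoxin Txn1 by 0.02 and the mitochondrial Txn2 by 0.05.

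Across the 24 genes that were not called, every 95% interval spanned 0 and lay within 1 on the log2 scale (lowest bound -0.86, highest 0.96), and 5 lay within 0.5. A log2 difference of 1 either way thus lay outside each interval taken on its own, while shifts within these bounds were not resolved with 3 arrays a group. For genes near background the lower bound does not exclude a fall of 1. Nfe2l2 and Sod3 had wild-type means of 4.81 and 5.01, and the untested background probes went no lower than 4.18. A fall of that size could therefore not show on these probes. Rises of such dim probes are compressed by the offset of 16, so their upper bounds hold for the normalized signal only. Of the 24, 18 were higher and 6 lower in sign. Of the 43 tested probes, groups did not overlap on 10 (5 higher and 5 lower), beside 18.1% of all tested probes (9.28% higher and 8.84% lower). Of the 27 genes, 9 did not overlap on the brightest probe, beside 18.6% of all features counted so. The median SD over the 43 probes was 0.187 in wild-type and 0.180 in knockout arrays, beside 0.263 and 0.185 over all tested probes. Wild-type replicate 3 was the lowest array for 17 of the 43 probes (30.1% of all tested probes) and knockout replicate 3 the highest for 14 (18.3%). Among the 9 genes with several tested probes, 7 had probes of both signs, all but Slc7a11 and Srxn1.

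**Figure D3:**
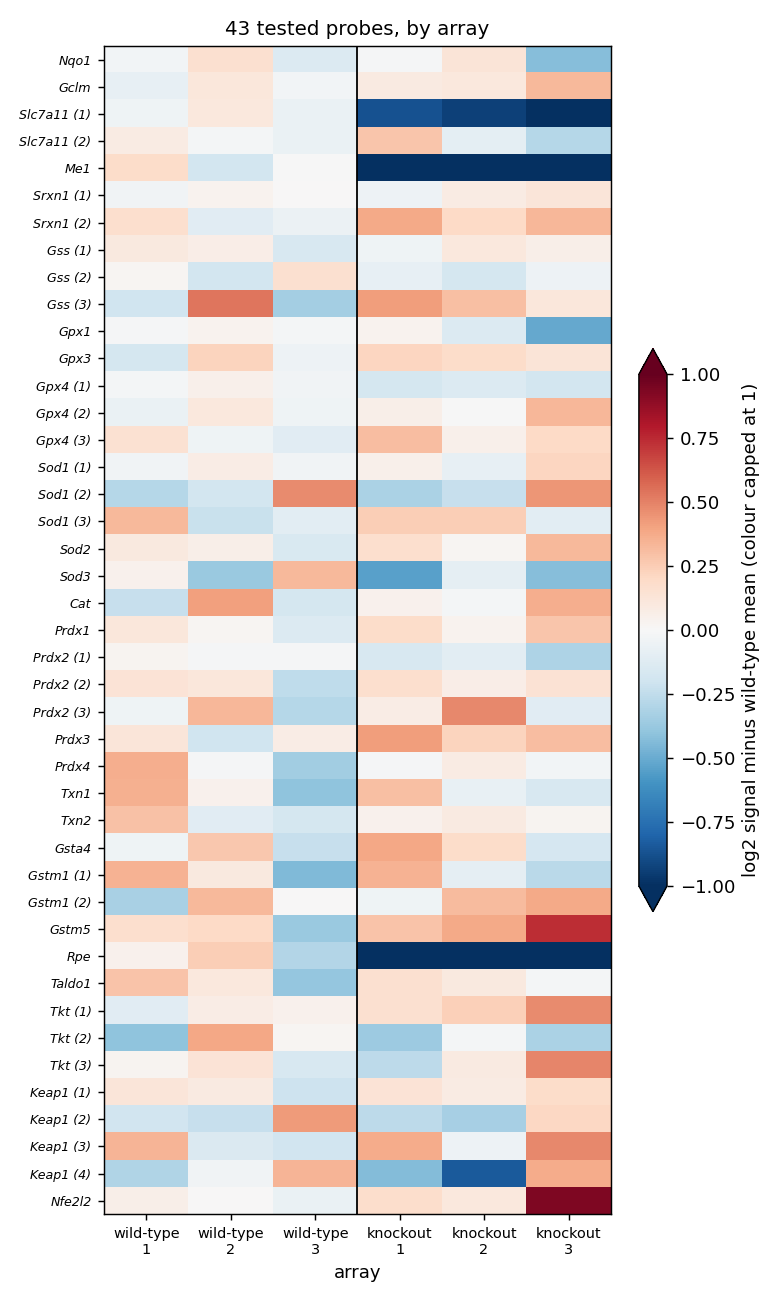
Log2 signal of each of 43 tested probes on each array minus the mean of the 3 wild-type arrays, with the colour capped at 1 either way; numbers in brackets order the probes of a gene from the brightest. Rpe, Me1 and the first Slc7a11 probe are low on all 3 knockout arrays, and wild-type replicate 3 is the lowest array for 17 of the 43 probes and knockout replicate 3 the highest for 14.

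Other genes of the same pathways were followed in 8 further lists, of which 120 genes were tested. 2 of these 120 fell, 0 rose and 118 did not pass, beside 2.3% of all features. Gstm2, a neighbour and close relative of Gstm1, was at 7.89, 7.63 and 7.05 in wild-type and 5.20, 5.47 and 5.16 in knockout arrays on its brightest probe. The groups were far apart, with a log2 difference of -2.25 (SE 0.234, limma adjusted p = 0.00108). Its next probe fell by 2.04 (adjusted p = 0.000836), and the dimmest was at -0.97 (adjusted p = 0.0652), lower on all 3 knockout arrays. The call on the brightest probe held in all 18 alternative analyses, with log2 differences from -2.86 with the authors' table to -1.44 with quantile normalization of the raw signal. Gstm4, Gstm6 and Gstm7 had brightest probes at -0.11, 0.19 and 0.08 and were not called, and Gstm3 was detected on 0 arrays. Mu-class genes are similar in sequence, and whether a probe also reads a relative was not tested.

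**Figure D4:**
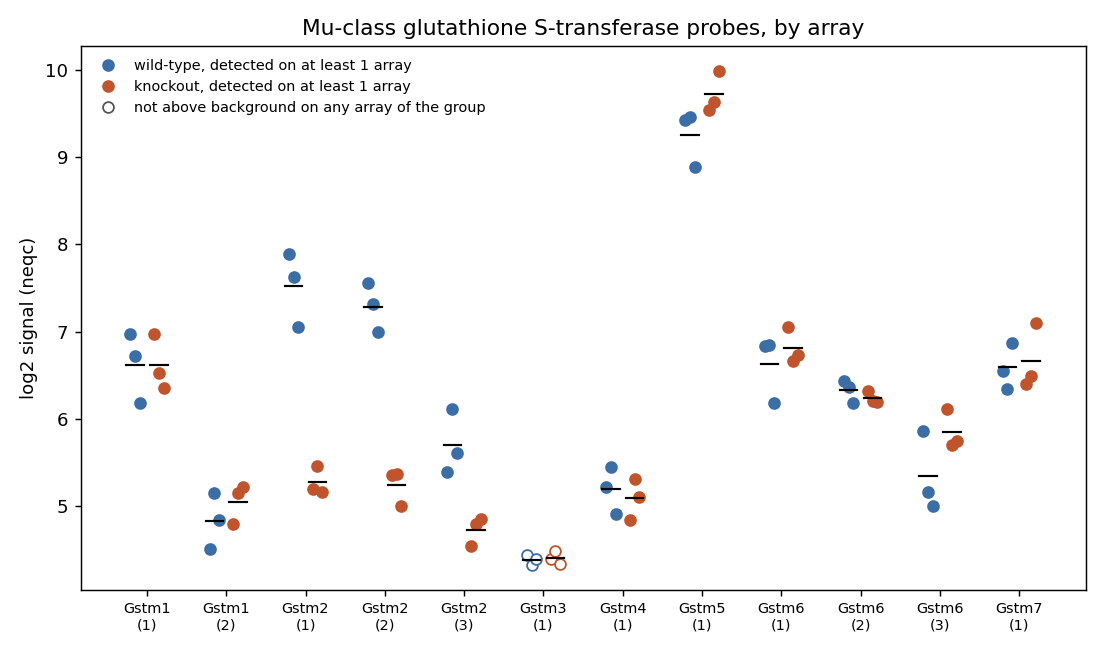
Log2 signal of the 12 probes of the 7 mu-class glutathione S-transferases on each array, wild-type in blue and knockout in red, with the mean of 3 arrays as a bar; numbers in brackets order the probes of a gene from the brightest, and open circles mark probes above background on 0 arrays of the group. All 3 Gstm2 probes are lower on every knockout array, and Gstm5 is higher on every knockout array.

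The enzyme named Pgm1 interconverts glucose 1-phosphate and the glucose 6-phosphate that feeds the pentose phosphate pathway. By the platform's symbol, which was not checked against the RefSeq gene table, Pgm1 was the other gene that fell. It was at 12.83, 12.89 and 12.92 in wild-type and 12.09, 12.02 and 11.88 in knockout arrays, a tight and separate pair of groups. The log2 difference was -0.88 (SE 0.159, limma adjusted p = 0.0234), or 54.3% of wild-type, and its second probe was at -0.52 (adjusted p = 0.433). The Pgm1 call was kept in 10 of 18 alternative analyses and in 1 of the 6 that left out an array (adjusted p = 0.0399 to 0.149). Of 10 tested genes in its list, 9 did not pass and 7 were higher in sign, with a median difference of 0.26.

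In the other lists 0 genes were called, and the genes with the smallest p were the following. Among other NADPH sources, Nadk2 and Nadk, which make NADP from NAD in mitochondria and cytosol, differed by 0.54 and -0.42 and the dehydrogenase Idh1 by 0.31 (0 of 10 called, median -0.01). Among glutathione and cysteine genes, Oplah differed by 0.61, the amino acid carrier Slc1a4 by -0.45 and the glutathione-degrading Chac1 by -0.37 (0 of 16, median 0.01). Txnip, the inhibitor of thioredoxin, was at 9.66, 9.61 and 8.71 in wild-type and 8.63, 8.48 and 7.99 in knockout arrays. All of its knockout values were below the wild-type ones, with a difference of -0.96 (SE 0.288, adjusted p = 0.198). Glrx2 and Sesn2 of the same list were at 0.72 and -0.58 (0 of 25 called, median 0.02).

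Among further NRF2 targets, the ferritin light chain Ftl1 was at 0.49, Ephx1 at -0.26 and the aldehyde dehydrogenase Aldh3a1 at -1.24 (0 of 19 called, median -0.03). Aldh3a1 read 6.31, 8.68 and 4.83 in wild-type arrays against 5.39, 5.62 and 5.09, so its difference rests on wild-type replicate 2. Among other regulators, Btrc, part of a ligase that also marks NRF2 for degradation, was at -0.63, Mafg, a DNA-binding partner of NRF2, at 0.49 and Palb2 at 0.52 (0 of 16 called, median 0.02). Mafg was at 9.03, 8.77 and 9.14 against 9.40, 9.45 and 9.56, above on every knockout array, with an adjusted p of 0.301. Of the enzymes that make oxidants, 5 of the 18 genes with a probe were detected widely enough to be tested and 0 were called, with Noxo1 at 0.52, Maob at 0.38 and Poldip2 at 0.26.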

How the data were processed

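Retinal RNA of 3 wild-type and 3 Vldlr knockout samples was read on 1 array each and, per the submitters' processing notes, with GenomeStudio (version not given in the sources used here). Per the file headers, the deposited values are non-normalized linear probe intensities, each with a detection p-value. The intensities in the table the authors named normalized equal the raw ones minus 1 constant per array (57.2 to 69.1), and the series' value table differs from it in 0 values. Between 18710 and 20974 probes per array had a detection p under 0.05, with a median raw intensity of 63.9 to 75.9, and the number of arrays limits the precision.

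Raw intensities were corrected and quantile-normalized as in neqc of limma 3.58.1 (R 4.3.3; offset 16, negative controls inferred from the detection p), which compresses changes of dim probes. Every probe with a detection p under 0.05 on at least 3 arrays was fitted by group (lmFit, eBayes, 2-sided), with Benjamini-Hochberg adjustment over 19921 probes and a threshold of 0.05. A gene was counted by its tested probe of highest mean. Symbols came from the platform's annotation, and all 63 member probes matched the RefSeq gene table with 0 changed symbols. Symbols of genes in the other lists were not checked in this way. Members and lists were chosen with earlier results of these data known. Array values are given for every probe of Rpe, Me1 and Slc7a11 and for the brightest probes of Vldlr, Gstm2 and Pgm1. They are also given for some other members and listed genes. Other called probes, those of cell type markers included, are given without array values. Of each other list the called genes are named, or else the 3 with the smallest p. Replicate numbers follow the sample order. In data simulated on 19921 probes, changes of 0.5, 1, 2 and 3 (log2) were called in 2%, 38%, 80% and 98% of 50 probes each, with 4 false calls. Alternatives changed normalization, offset, filter, variance, weights, threshold, block and arrays. Plots used matplotlib 3.10.9.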

Additional observations from a re-analysis of the deposited data

How the results depend on the processing

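Rpe was called in all 18 alternative analyses and Me1 in the 14 that tested it. In both counts, 1 alternative only loosened the threshold to an adjusted p of 0.10, where no call could be lost. Leaving out 1 array, Rpe ran from -4.00 to -3.69. The number of called genes was 3 in the analysis reported; 2 with quantile normalization of raw signal, with the authors' table, without a filter and with the replicate block, and 1 without both knockout replicate 1 and wild-type replicate 3 (the numbers of probes were the same), with Slc7a11 lost in each and Me1 no longer tested in the last; 1 to 2 without 1 array. Slc7a11 had an adjusted p of 0.0524, 0.0519, 0.0703 and 0.0771 under the first 4; the cause was not tested. Over all probes, 437 calls became 223 with the authors' table, 925 with array weights, 283 with the replicate block, 214 without both doubtful arrays and 201 to 380 without 1 array. Called genes of the other lists were 2, but 1 with median scaling, 4 with array weights and 1 to 4 without 1 array. The replicate block used the number in the sample title, shared by 2 pairs. The correlation of their deviations from the group mean was -0.02 and -0.27, against -0.27 to 0.36 for arrays of unlike number. No sign of a pairing was thus seen, but 3 arrays a group are too few to exclude it. The alternative that kept the 6-array filter was chosen after seeing the data. Dim probes limit what can be seen: 20 of 63 were not tested.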
